A study of Penicillium oxalicum with 15 samples.

Results

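The comparison set mycelium of Penicillium oxalicum strain MuKu70, a filamentous fungus grown on carbon source WR, against mycelium of strain EU2101 grown on WR, with 3 RNA sequencing libraries each out of 15 in the series. The cultures were static solid-state fermentations of 5 days at 28 °C, each of 10 g of dried, milled carbon source wetted with 20 mL of mineral salts. The labels do not spell out WR, and the titles of the EU2101 libraries write WB_RS for it. They say neither how MuKu70 or EU2101 was made, nor how the strains are related, nor whether replicates came from separate cultures, so that p-values measure only the spread between these libraries, which may be technical. MuPOX03016, a further mutant strain grown on WR, and EU2101 grown on WB plus AV or on WB alone appear below only to show levels elsewhere in the series.

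The genes described are 4731 of the 9512 identifiers listed in any library. They were chosen because the values of both strains rest on the same gene model. The deposited count and FPKM value of a gene (fragments scaled to gene length and library size) together give the effective length over which its reads were counted. A gene was kept where it had at least 5 FPKM and a count of at least 20 in all 6 libraries and where its median effective length in MuKu70 lay between 91 and 51 bp under that in EU2101, a common shift of the whole table. Of 9393 identifiers listed in the 6 libraries, 2657 were under the minimum in at least 1 library and 2005 passed it with another gene model. The rule thus leaves out any gene near 0 in either strain. It also leaves out 56 identifiers listed in every MuKu70 library and in no EU2101 library on WR. A further 283 were listed in every EU2101 library on WR and in no MuKu70 library. Whether these were at 0 or had no gene model in the strain that lacks them cannot be told here.

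Soil fungi such as Penicillium live on dead plant matter by secreting sets of enzymes. Cellobiohydrolases cut cellulose from chain ends, endoglucanases cut inside the chain, beta-glucosidases release glucose, and xylanases cut the hemicellulose xylan. The genes for these enzymes are known to be switched on together by transcription factors of the zinc cluster kind when cell wall polymers are present and to be held low when free sugar is plentiful. Ku70 binds broken DNA ends and starts their joining, and fungi that lack it are widely used as hosts for gene deletion because introduced DNA then integrates mainly at matching sequence. The identifiers in the files are paired with no gene name, so the Ku70 gene itself could not be looked up, and the strain label could not be checked on it.

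Depth, gene model and read assignment all differed between the strains. The estimated counts summed to between 6753528 and 7335888 in the MuKu70 libraries and between 3372763 and 3414915 in the EU2101 libraries on WR. The 4731 genes held 50.4 to 52.0% of the counts in MuKu70 and 65.6 to 66.3% in EU2101. Counts that were not whole numbers, where reads may have been divided between genes, made up 7.65 to 7.74% of these genes' values in MuKu70 and 0.08 to 0.15% in EU2101, and 4356 of the 4731 genes had whole counts in all 6 libraries. Strain cannot be told apart from depth and read processing in any difference below. Across these genes, libraries of one strain correlated at r of 0.964 to 0.985 on the log2(FPKM + 1) scale, and libraries of different strains at 0.786 to 0.842, a description over genes, which are not independent replicates.

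Many of the genes with a shared model differed between the strains, most of them by less than 2-fold. In edgeR's quasi-likelihood test with Benjamini-Hochberg adjustment over all 8287 genes tested, 2470 of the 4731 passed a threshold of 0.05, or 52.2%, against a background of 62.8% of all genes tested. In this fit 880 were higher in MuKu70 (18.6%, background 31.5%) and 1590 were lower (33.6%, background 31.3%). The log2 fold changes, given throughout as MuKu70 over EU2101, had a median of -0.13 over the 4731 genes and of -0.01 over all genes tested, with quartiles of -0.57 and 0.25 in the shared models. The median SD between the 3 replicates of a gene was 0.14 in MuKu70 and 0.16 in EU2101 on the log2(FPKM + 1) scale.

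The balance between rises and falls depended on the scaling. With the scaling factors computed on the shared gene models alone, 1290 genes were higher in MuKu70 (background 38.2%) and 1195 lower (25.5%, and 63.6% in either direction). The median of the 4731 genes then lay at 0.03, 0.16 above that with factors from all genes. With the effective length of each gene in each library entered as an offset, 1287 were higher (background 28.0%) and 1181 lower (28.9%, and 56.9% in either direction). On log2(FPKM + 1), limma gave 983 higher (background 21.7%) and 1390 lower (32.2%, and 54.0% in either direction). DESeq2 gave 740 higher (background 29.0%) and 1628 lower (31.9%, and 60.9% in either direction), and scaling to library totals gave 757 higher (background 29.3%) and 1693 lower (33.0%, and 62.2% in either direction). In all 6 fits 715 of the 4731 genes were higher and 1135 lower in MuKu70. No background over all genes tested is at hand for this count.

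**Figure D1:**
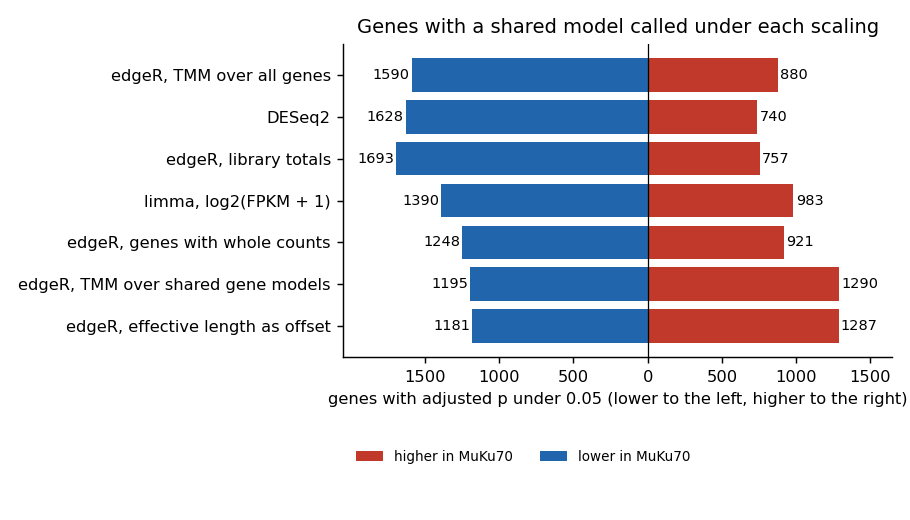
Number of genes with a shared gene model that passed an adjusted p of 0.05, lower in MuKu70 to the left and higher in MuKu70 to the right, for each of 7 fits of the same 6 libraries (4356 genes in the row for whole counts, 4731 in the others). The lower calls outnumber the higher ones in the upper 5 rows and are slightly fewer in the last rows, where the scaling was computed on the shared gene models (1290 higher and 1195 lower) or per effective length (1287 higher and 1181 lower).

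Genes with another model behaved differently in the same count test. Of these 2005 genes, 1344 were higher in MuKu70 and 207 lower, with a median log2 fold change of 0.75, while their median effective length was 792 bp longer in MuKu70. With effective length as an offset, 673 of them were higher and 452 lower, with a median of 0.11, and in limma on log2(FPKM + 1) 531 were higher and 525 lower. The near even count over all genes tested, 2610 higher and 2597 lower, thus joins these genes with the shared models and with 1551 tested genes under the minimum, of which 386 were higher and 800 lower.

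Large changes were fewer among the shared models. At least 2-fold, 234 genes were higher in MuKu70 (4.95%, background 16.8%) and 631 lower (13.3%, background 17.6%). At least 4-fold, 68 were higher (1.44%, background 7.42%) and 168 lower (3.55%, background 9.21%), and at least 16-fold, 4 were higher (background 1.98%) and 18 lower (background 4.66%). These shares are low in part by construction, since a gene near 0 in a strain is no member. The background also holds the genes with another model. Of those, 39.8% were at least 2-fold higher and 3.34% at least 2-fold lower in counts, without correction for their length. The 2-fold counts too depended on the scaling, with 305 higher and 499 lower with factors from the shared models and 326 higher and 481 lower with the length offset. In FPKM, all 3 MuKu70 libraries lay above all 3 EU2101 libraries for 1241 genes (26.2%, background 27.3%) and below them for 1657 (35.0%, background 37.8%).

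**Figure D2:**
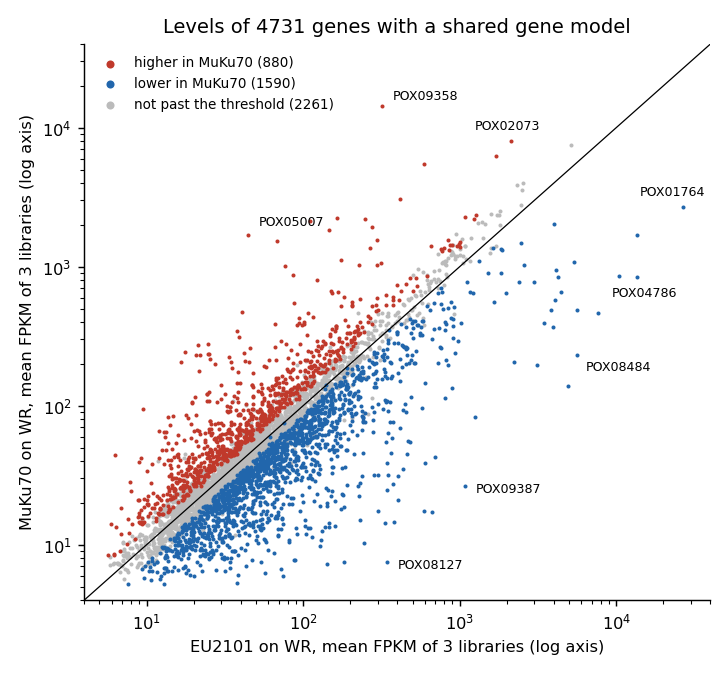
Mean FPKM of the 3 MuKu70 libraries (vertical, log axis) against that of the 3 EU2101 libraries on WR (horizontal, log axis), 1 point for each of 4731 genes with a shared gene model, red where higher and blue where lower in MuKu70 by edgeR. The black line marks equal FPKM, and the abundant genes of EU2101 such as POX01764 and POX04786 lie far below it.

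Calls were more frequent among abundant genes. A difference is easier to call at higher counts, and the part this has in the trend was not tested. In 5 classes of about equal size by mean log2(FPKM + 1) over the 6 libraries, 44.1% of genes passed in the lowest class, then 48.6%, 50.8%, 57.8% and 59.6% in the highest. The part of the calls that was higher in MuKu70 was 28.0% in the lowest class and 41.8% in the highest. This too depended on the scaling. With the length offset, 164 genes were higher and 229 lower in the lowest class, and 368 higher and 235 lower in the highest. Gene length went with the size of the offset correction. In 5 such classes by length, the shortest, of 109.6 to 716.4 bp effective length in EU2101, had a median log2 fold change of -0.09 in counts and 0.22 with the length offset, and the longest had -0.14 and -0.04.

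The strains differed in which genes were most abundant. Among the 4731 genes, 63 were among the 100 highest in mean FPKM in both strains. Of the 100 highest in MuKu70, 36 were called higher and 13 lower in that strain, and of the 100 highest in EU2101, 13 were higher and 48 lower in MuKu70, a tilt that choosing genes by their level in a strain favours. The 10 most abundant shared-model genes of a library held 7.15 ± 0.93% of all its FPKM in MuKu70 and 11.02 ± 1.01% in EU2101 on WR (SD, n = 3 each). The p was 0.1 in an exact 2-sided permutation test, which cannot go lower with 3 libraries a strain.

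POX01764 was the most abundant gene of EU2101 on WR. It stood at 2854, 2540 and 2660 FPKM in the MuKu70 libraries, against 25933, 29594 and 24185 FPKM in EU2101 on WR, groups far apart with little spread within them. In counts the log2 fold change was -3.50 (SE 0.20, adjusted p = 3.63e-06), 11.3-fold lower, and with the length offset it was -3.19. The counts of POX01764 were not whole in every library, so reads may be shared with another gene. In MuPOX03016 it had 1546 to 2188 FPKM. Levels in EU2101 were 3170 to 13572 FPKM on WB plus AV and 1502 to 13805 FPKM on WB, so that the EU2101 libraries on other carbon sources spanned the MuKu70 values.

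POX03430 came next in EU2101, at 1787, 2408 and 891.1 FPKM in MuKu70, against 15238, 12033 and 13487 FPKM in EU2101 on WR. The change of -3.13 (SE 0.37, adjusted p = 0.000161) was 8.78-fold. Its MuKu70 values lay within the range of 792 to 7196 FPKM seen in EU2101 on WB plus AV and on WB.

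In MuKu70, POX09358 and POX02073 were the most abundant. POX02073 had 8494, 8178 and 7470 FPKM in MuKu70, against 2146, 2056 and 2162 FPKM in EU2101, tight in both strains. It rose 3.4-fold (log2 fold change 1.76, SE 0.15, adjusted p = 2.4e-05). In MuPOX03016 it reached 5255 to 7866 FPKM and in EU2101 on the other carbon sources 2038 to 3198 FPKM, so all 6 libraries of the MuKu70 and MuPOX03016 strains lay above all 9 of EU2101. The next identifier, POX02072, named after its values were seen, behaved alike, at 6380, 6780 and 5657 FPKM in MuKu70, against 1398, 1695 and 2019 FPKM in EU2101 (log2 fold change 1.79, SE 0.19, adjusted p = 8.17e-05). POX05554, also named after its values were seen and at rank 3 in MuKu70, had 7382, 9191 and 6028 FPKM there, against 4026, 5580 and 5760 FPKM in EU2101, and did not pass (log2 fold change 0.43, adjusted p = 0.12), though it did with factors from the shared models or the length offset. POX05554 was read most in EU2101 on WB, at 11785 to 23203 FPKM.

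The largest rises were those of POX09358 and POX05007 and varied much between the MuKu70 replicates. POX05007 had 1428, 497.4 and 3172 FPKM in MuKu70, against 31.8, 43.7 and 58.1 FPKM in EU2101 on WR. Every MuKu70 value was at least several times the highest EU2101 value, and the log2 fold change was 5.21 (SE 0.69, adjusted p = 0.000298). Without MuKu70 replicate 3, the highest library, it was 4.40 (adjusted p = 0.000166). In MuPOX03016 the values were 1868, 495.9 and 2885 FPKM. Among the EU2101 groups POX05007 was highest on WB plus AV, at 308.1 to 370.7 FPKM, and lowest on WB, at 3.16 to 13.8 FPKM.

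The largest falls were those of POX08127, which lay near the minimum of the rule in MuKu70, and POX09387. POX08127 had 8.82, 5.36 and 8.41 FPKM in MuKu70, against 269.7, 452.8 and 310.9 FPKM in EU2101 (log2 fold change -5.56, SE 0.27, adjusted p = 1.57e-06). It stood at 6.57 to 9.12 FPKM in MuPOX03016, and at 42.8 to 98.99 FPKM on WB plus AV and 40.9 to 54.8 FPKM on WB in EU2101. POX09387 had 19.2, 32.6 and 27.5 FPKM in MuKu70, against 944.3, 960.2 and 1336 FPKM in EU2101 on WR (log2 fold change -5.42, SE 0.25, adjusted p = 1.43e-06). It was more abundant still in EU2101 on WB plus AV and on WB, at 2267 to 3667 FPKM, and at 7.21 to 12.5 FPKM in MuPOX03016. For both genes the libraries of MuKu70 and MuPOX03016 lay below all 9 of EU2101.

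Separation of this kind was counted among the called genes only. In FPKM, 295 genes called higher had all 6 MuKu70 and MuPOX03016 libraries above all 9 EU2101 libraries (6.24%, background 8.71%), and 720 called lower had them below (15.2%, background 17.0%). Among the shared models, counts that were not whole made up 7.27 to 7.55% of the values in MuPOX03016. In the 9 EU2101 libraries they made up 0.06 to 0.15%. Processing thus moves with strain in this separation too.

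A list of 13 identifiers, recalled from published quantitative PCR panels of cellulase and xylanase genes of this species, was read next, and the function of each member was not checked here. The list was drawn up with earlier results of these data known. Of the 13, 8 had a shared gene model, and all 8 were lower in MuKu70, where 31.3% of all genes tested were lower. Their median log2 fold change was -3.33, or 10.0-fold lower, against medians of -0.13 over the shared models and -0.01 over all genes tested. In each of the 8 the MuKu70 libraries lay below all EU2101 libraries on WR. All 8 were among the 100 most abundant shared-model genes of EU2101, and 2 were among those of MuKu70. Of those 100 genes of EU2101, 48 were called lower and 13 higher in MuKu70, a tilt that choosing by level favours.

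POX08484 fell most. It had 249.0, 270.6 and 175.4 FPKM in MuKu70, against 7486, 4169 and 5171 FPKM in EU2101 on WR (log2 fold change -4.67, SE 0.31, adjusted p = 7.15e-06), and its rank among the 4731 genes was 413 in MuKu70 and 6 in EU2101. Its counts were not all whole, so that its value is less certain. POX05587 had 484.0, 522.6 and 388.4 FPKM in MuKu70, against 8212, 6272 and 8453 FPKM in EU2101 (log2 fold change -4.06, SE 0.25, adjusted p = 4.3e-06). That gene ranked 187 in MuKu70 and 5 in EU2101.

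POX04786 had 918.2, 970.3 and 648.9 FPKM in MuKu70, against 15610, 11608 and 13503 FPKM in EU2101 (log2 fold change -4.04, SE 0.28, adjusted p = 8.28e-06). POX01166 stood at 925.0, 944.7 and 693.1 FPKM in MuKu70, against 12351, 7895 and 10976 FPKM in EU2101 (log2 fold change -3.65, SE 0.27, adjusted p = 1.27e-05). These were the abundant members of the list in EU2101, at ranks 3 and 4, and held ranks 103 and 101 in MuKu70.

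Smaller falls were found in the other members. POX05571 had 526.0, 558.6 and 381.3 FPKM in MuKu70, against 4762, 2928 and 3809 FPKM in EU2101 (log2 fold change -3.0, adjusted p = 2.77e-05). POX06783 had 1016, 744.5 and 779.4 FPKM in MuKu70, against 5366, 3383 and 4065 FPKM in EU2101 (log2 fold change -2.41, adjusted p = 5.86e-05), and POX05570 had 1017, 1049 and 761.8 FPKM, against 4560, 3242 and 4570 FPKM in EU2101 (log2 fold change -2.22, adjusted p = 5.32e-05). POX07535 changed least, with 1013, 1101 and 597.9 FPKM in MuKu70, against 2050, 1483 and 1996 FPKM in EU2101 (log2 fold change -1.14, SE 0.25, adjusted p = 0.00498).

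**Figure D3:**
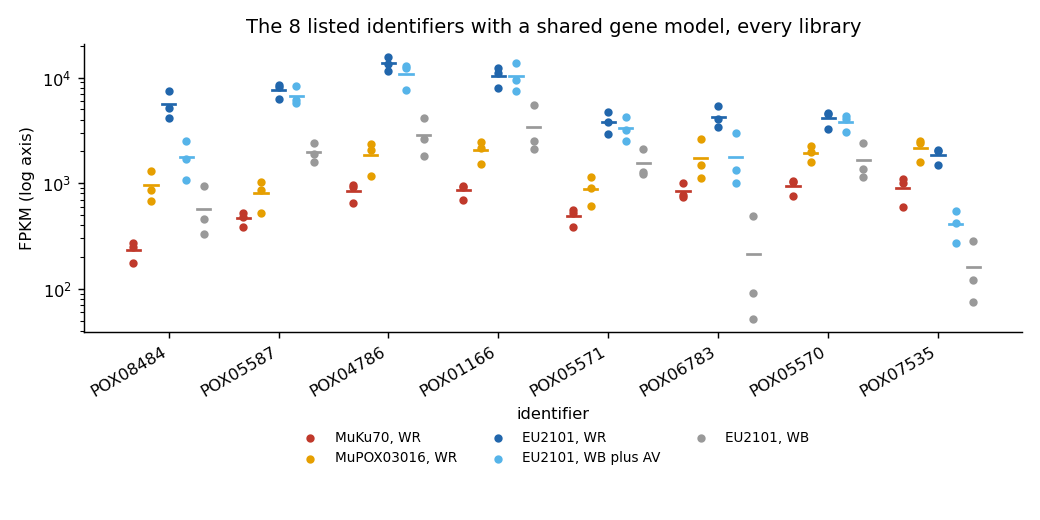
FPKM (log axis) of the 8 listed identifiers with a shared gene model in every library, 1 point per library and a short line at the mean of 3, in order of their log2 fold change. The MuKu70 points (red) lie below those of EU2101 on WR (dark blue) for each identifier, and the gap narrows from POX08484 on the left to POX07535 on the right.

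The fall was uneven, so that the order of levels differed between the strains. In EU2101 on WR the means ran from 13574 ± 2002 FPKM for POX04786 down to 1843 ± 313 FPKM for POX07535 (SD, n = 3). In MuKu70, POX05570 (942.6 ± 157.4), POX07535 (903.9 ± 268.6), POX01166 (854.3 ± 139.9), POX06783 (846.5 ± 147.4) and POX04786 (845.8 ± 172.5 FPKM) did not differ beyond their spread, and POX05571, POX05587 and POX08484 were lower. Summed, the 8 made up 0.67 ± 0.13% of all FPKM in MuKu70 and 1.5 ± 0.35% in MuPOX03016, against 5.70 ± 1.07% in EU2101 on WR, 4.54 ± 0.84% on WB plus AV and 1.38 ± 0.42% on WB (SD, n = 3 each).

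Levels in MuKu70 on WR could thus be set beside those of EU2101 on WB, the carbon source on which EU2101 had the list lowest. Of the 8, 6 had all MuKu70 libraries below all EU2101 libraries on WB, and 2 had them above. POX04786 had 648.9 to 970.3 FPKM in MuKu70 on WR, under the 1817 to 4123 FPKM of EU2101 on WB, and the same order held for POX08484, with 175.4 to 270.6 FPKM in MuKu70 and 332 to 939 FPKM in EU2101 on WB. POX06783 and POX07535 lay the other way round, at 744.5 to 1016 and 597.9 to 1101 FPKM in MuKu70, above the 52.1 to 494.4 and 74.5 to 286.6 FPKM of EU2101 on WB. Both strain and carbon source differ in these pairs, and they were not tested.

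The other 5 members of the list, POX00063, POX01896, POX02740, POX06147 and POX06835, had effective lengths 185.6 to 1076 bp longer in MuKu70, so that their counts and FPKM values rest on different gene models. Among these, 4 were called lower in MuKu70 and 1, POX06835, higher. The size depended on the model: the log2 fold change of POX01896 was -2.62 in counts and -3.22 with the length offset, and that of POX02740 was -1.81 and -2.60. POX06835 had 684.9, 864.7 and 545.5 FPKM in MuKu70, against 135.7, 178.6 and 159.7 FPKM in EU2101, over 2925 and 2528 bp of effective length, and its counts were not all whole. The sole rise in the list thus lies outside the shared models. Its log2 fold change was 2.39 in counts (adjusted p = 2.16e-05) and 2.25 with the length offset (adjusted p = 4.73e-05). What the differing model adds to its size beyond length was not tested.

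POX03016, the gene named in the other mutant strain, also had another model, of 2256 bp in MuKu70 and 1331 bp in EU2101. It stood at 87.4, 139.0 and 88.9 FPKM in MuKu70, against 75.5, 241.0 and 98.3 FPKM in EU2101 on WR, groups that overlap. In counts its log2 fold change was 0.42 (adjusted p = 0.39), and with the length offset it was -0.28 (adjusted p = 0.573). Without EU2101 replicate 2, the highest of these libraries, it was 1.03 in counts (adjusted p = 0.00671). That fit did not correct for the longer model in MuKu70, and in FPKM the groups still overlapped without that library.

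Changes were also read along the identifier numbers. The files give no coordinates, so consecutive numbers are not shown to be neighbours on a chromosome. Of the 4731 genes, 865 (18.3%) changed at least 2-fold, and of 2508 pairs with consecutive numbers 100 (3.99%) held 2 such genes. In 79 of the 100 both genes moved the same way, 24 pairs higher and 55 lower in MuKu70. Of the 865 genes, 631 were lower in MuKu70, which by itself favours pairs that move the same way. Whether the pairs exceed what these shares would yield without any grouping was not tested. There were 3 runs of 3 or more higher genes and 3 runs of 3 lower genes.

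The longest run, POX09357 to POX09361, held 5 genes, all higher in MuKu70, and includes the most abundant gene of that strain. POX09358 had 11618, 7700 and 23820 FPKM in MuKu70, against 174.7, 339.8 and 438.0 FPKM in EU2101 on WR. It ranked 1 in MuKu70 and 308 in EU2101. Its rise was the largest of all shared models (log2 fold change 5.37, SE 0.55, adjusted p = 7.46e-05). Its effective length differed by -84.9 bp, within the tolerance of 20 bp but outside one of 10 bp. The shift followed a line on gene length, and 4690 of the 4731 genes lay within 5 bp of that line. POX09358 lay at -8.9 bp from it, so that its shared gene model is less certain than that of most members.

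Around it the rises were smaller. POX09357 had 217.7, 215.9 and 262.2 FPKM in MuKu70, against 16.5, 21.0 and 24.4 FPKM in EU2101 (log2 fold change 3.49, SE 0.17, adjusted p = 1.57e-06). POX09361 had 457.0, 354.7 and 1019 FPKM, against 121.7, 188.7 and 233.8 FPKM in EU2101 (log2 fold change 1.65, SE 0.41, adjusted p = 0.00822), and POX09359 and POX09360 rose by 1.26 and 1.04 on the log2 scale (adjusted p = 0.000467 and 0.00361). The genes that follow were named after their values were seen. POX09362, with another gene model, had 88.9 to 97.6 FPKM in MuKu70 and 81.0 to 88.6 FPKM in EU2101 and was called higher in counts (log2 fold change 0.62) but not with the length offset, and POX09363 was under the minimum. POX09364 and POX09365 again rose, by 2.50 and 3.74 on the log2 scale (adjusted p = 7.54e-06 and 3.09e-05), POX09365 with 2001, 1631 and 3060 FPKM in MuKu70, against 108.0, 199.6 and 187.2 FPKM in EU2101.

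The same identifiers varied across the other groups. In MuPOX03016, POX09357 had 4.24 to 7.5 FPKM and POX09364 1.94 to 2.18 FPKM, below every EU2101 library on WR, while POX09358 had 492.3 to 3731 FPKM, between MuKu70 and EU2101. In EU2101 on WB plus AV, POX09358 had 2136 to 3147 FPKM and POX09361 756.5 to 1278 FPKM. For none of the 5 genes of the run did both mutant strains lie above all 9 EU2101 libraries.

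**Figure D4:**
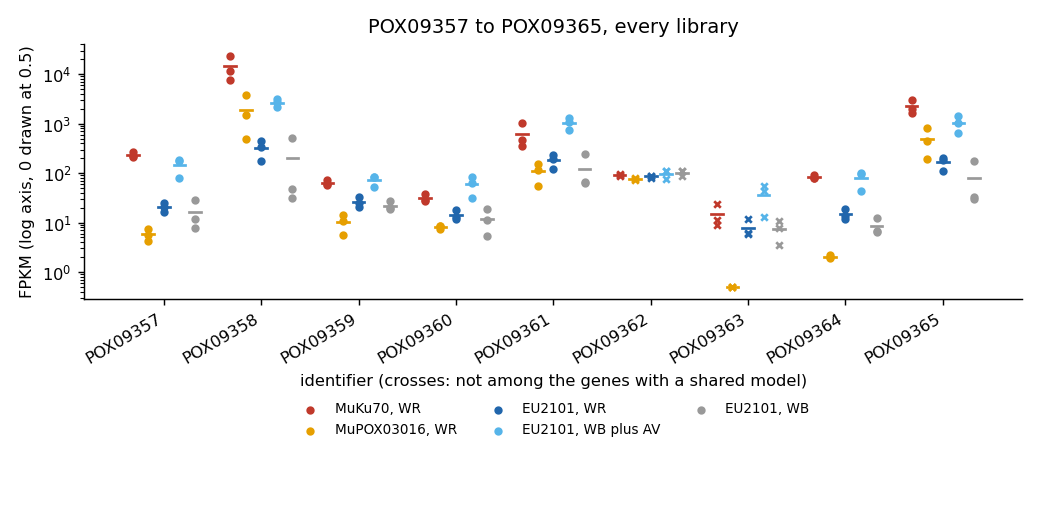
FPKM (log axis, a value of 0 drawn at 0.5) of POX09357 to POX09365 in every library, with a short line at the mean of 3 and crosses for POX09362 and POX09363, which are not among the genes with a shared model. MuKu70 (red) lies above EU2101 on WR (dark blue) in the 5 genes on the left, in POX09364 and POX09365, and narrowly in POX09362. MuPOX03016 (orange) lies below EU2101 on WR in POX09357, POX09359, POX09360, POX09363 (0 in every MuPOX03016 library) and POX09364, and narrowly in POX09362.

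The longest runs of falls had 3 genes, of which POX05866 to POX05868 fell most. POX05866 had 88.4, 84.1 and 76.3 FPKM in MuKu70, against 1213, 1392 and 1180 FPKM in EU2101 on WR (log2 fold change -3.99, SE 0.13, adjusted p = 4.49e-07). POX05868 had 15.5, 18.0 and 18.8 FPKM in MuKu70, against 301.5, 318.5 and 278.6 FPKM in EU2101 (log2 fold change -4.16, SE 0.11, adjusted p = 3.07e-07), and POX05867 between them had 7.80, 6.80 and 8.86 FPKM, against 49.8, 46.6 and 45.6 FPKM in EU2101 (log2 fold change -2.58, adjusted p = 1.69e-06). Replicates of these 3 genes were close in both strains. EU2101 had less of all 3 on the other carbon sources, with 124.7 to 367.2 FPKM of POX05866 on WB plus AV and 29.3 to 250.5 FPKM on WB.

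The edges of the rule were thinly filled. The shift in effective length had a median of -78.2 bp over the 4731 genes, with quartiles of -79.9 and -77.1 bp. By library, the median shift was -43.0, -78.2 and -78.9 bp in MuKu70 replicates 1, 2 and 3 and between -0.5 and 2.6 bp in the EU2101 libraries, so that MuKu70 replicate 1 stood apart in this measure. The shift grew with length, by -3.51 bp per kb, and of 88 genes below the kept range 76 had an effective length over 3000 bp, so the rule left out some long genes. Of the 88, 68 lay within 20 bp of the line of shift on length, though all 88 are counted above with another gene model. Within 5 bp of either edge lay 152 of the genes kept and 40 of those left out.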

How the data were processed

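The deposited data hold a file per library in which every row gives an identifier with its expected count and FPKM, per the file headers. These expected counts, estimates of the reads of a gene, were deposited unscaled. The FPKM values were scaled to gene length and depth by the authors, and a gene at 0 is not listed. Per the submitters' processing notes the tools included RSEM 1.2.12, Bowtie2 2.1.0, DESeq2 and BWA 0.7.10-r789, with no role or order stated, and the genome build is not given in the sources used here. None of the 9512 identifiers had a match among the 9964 genes in the RefSeq table used here (0 matched), so genes are given by identifier.

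Effective length was computed as the count divided by the FPKM value and the library's count sum, in bp. The rounded counts of the 6 libraries entered the quasi-likelihood test of edgeR 4.0.16 under R 4.3.3 (TMM factors, filterByExpr at 10 counts, Benjamini-Hochberg adjustment over all 8287 genes tested, threshold 0.05). All adjusted p-values come from this test unless another is named, and an SE is the log2 fold change over the root of F. Alternatives used DESeq2 1.42.0 and limma 3.58.1, and the fits were tested on simulated data. Replicates differed beyond sampling noise in every pair, with a chi-square of 8.4 to 52.0 per degree of freedom. The members and lists were chosen with earlier results of these data known.

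Genes were named by a rule: POX03016, the list of 13, the 2 largest rises and 2 largest falls among called genes with whole counts, at least 50 FPKM in the higher strain and groups apart, the 2 most abundant genes of each strain, and the longest run of consecutive identifiers in each direction, at least 2-fold changed, with the larger median change where runs tied.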

Additional observations from a re-analysis of the deposited data

How the results depend on the processing

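The 17 other fits kept the total, the higher and the lower calls among the shared models within 1.5 times the reported numbers, and the 8 listed identifiers stayed lower in each, except that POX08484, like POX01764, POX06835, POX09362 and POX09363, was not tested in the fit of whole counts. The median log2 fold change of the shared models, -0.13 as reported, was -0.17 in DESeq2 and under library totals, -0.11 without the count filter, -0.06 in limma on log2(FPKM + 1), with or without its filter, and on log2(FPKM + 5), -0.05 over genes with whole counts, and 0.03 and 0.04, of the other sign, with factors from the shared models and with the length offset. Leaving out 1 replicate gave medians of -0.15 to -0.13 and 2013 to 2316 calls. POX03016 turned to -0.24 in the 3 limma fits and -0.28 with the length offset, and passed as higher without EU2101 replicate 2 (1.03) and with a replicate block (0.55). Both of these passes were in counts, with no correction for its longer model in MuKu70. Of the other genes named, POX05554 passed with factors from the shared models or the length offset, POX09362 no longer passed in the limma fits or with the length offset, POX09363 passed with a replicate block, and the others kept their call and direction in the fits that tested them. As shares of counts, the 8 listed identifiers held 0.53% in MuKu70, and the 10 most abundant shared-model genes 4.24% in MuKu70 and 9.19% in EU2101. Over all genes of a library, the 10 and 100 most abundant held 8.42% and 28.1% of FPKM in MuKu70 and 11.24% and 31.16% in EU2101, and as shares of counts 4.95% and 20.19% in MuKu70 and 9.68% and 27.94% in EU2101. The cause of these moves was not tested.

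A tolerance of 10 bp kept 3908 genes, one of 40 bp 4799, a minimum of 1 FPKM and 10 counts 5233, and a sloping line, chosen after seeing the data, 4798. Same-numbered libraries deviated together at r of 0.06, 0.153 and 0.113, each higher than with other numbers. For MuKu70 replicate 1 the margin was small, with 0.054 against EU2101 replicate 3. The labels state no pairing, and pairing was not tested. With the replicate number as a block, 2384 genes passed, 837 higher and 1547 lower. Depth limits genes of low level: the FPKM and count minimum removes falls to near 0.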
